A study of Mus musculus with 7 samples.

Results

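Macrophages collected 14 days after sciatic nerve transection and repair were set against the mean of those collected 5 and 28 days after it, on a log2 scale, to find genes with a transient peak or trough in the middle of the time course. A gene with a peak has a positive value in this contrast and a gene with a trough a negative one. All 7 libraries entered the comparison: 3 from day 5, 2 from day 14 and 2 from day 28. Of the 23361 genes listed, 12858 had enough fragments to be tested. All groups were BALB/cJ mice, an inbred strain without an engineered allele, whose cut nerve had been rejoined through an empty conduit. The cells came from the tissue that grew across the gap, the regenerative bridge, which had been digested with collagenase and hyaluronidase before the sort. Strain, surgery and sort gate were shared, and the groups were defined by the time after repair. The dates of harvest, sort and library preparation were not found for any library. No age was found for these mice. Polyadenylated RNA was sequenced from cells gated as positive for F4/80, CD14, CD11b and CD16/32 and negative for lineage markers of granulocytes, eosinophils, B and T lymphocytes, red cells and fibroblasts. Whether a library held 1 mouse or a pool was not found, and neither intact nerve nor the other cells of the bridge were sequenced.

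Macrophages that enter an injured nerve derive largely from blood monocytes, take up myelin and cell debris, and release factors that act on blood vessels, Schwann cells and fibroblasts. They change state within the tissue over days, and a stage in the middle of repair may be missed when only the ends of the time course are compared. Genes that respond within minutes to a stimulus, such as those of the AP-1 and EGR transcription factors, can differ between times without any change in which cells are present.

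Library totals were 26167372, 21509710 and 21889611 fragments at day 5, 18027190 and 20822892 at day 14, and 35247116 and 18101976 at day 28, and 13209 to 14047 genes had more than 3 fragments in a library. The sort markers were present at every time. Emr1, which encodes F4/80, was at 470.0, 393 and 365 FPKM (fragments per kilobase of transcript, scaled to the library) in the day 5 libraries, 344 and 249 at day 14 and 195 and 209 at day 28. Cd14, a co-receptor for bacterial lipopolysaccharide, was at 3003, 2635 and 2659 FPKM at day 5, 1837 and 1431 at day 14 and 1433 and 1799 at day 28. Both markers had their highest values at day 5 and neither set the day 14 libraries apart from all others. Itgam (CD11b) was at 397, 341 and 346 FPKM at day 5, 201 and 275 at day 14 and 289 and 235 at day 28, and the Fc receptor genes Fcgr3 and Fcgr2b, which encode CD16 and CD32, had log2 contrasts of 0.10 and 0.25. None of these 5 genes passed the test by edgeR (adjusted p from 0.351 for Cd14 to 0.933 for Emr1) or DESeq2, and 2 of them, Cd14 and Itgam, had an unadjusted p under 0.05. Of the 9 macrophage markers tested, 0 had both day 14 libraries outside all others, and their median contrast was 0.06, beside 0.02 over all genes tested. In bulk samples like these, fewer cells of a type and less RNA per cell cannot be told apart.

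The day 14 libraries stood apart from each other more than replicates at the other times did. Over 8012 genes, the median absolute log2 difference was 0.192 between replicates 1 and 2 of day 14, 0.108 to 0.131 between day 5 libraries and 0.172 between the day 28 libraries. Replicate 1 of day 14 lay at 0.188, 0.181 and 0.180 from the day 5 libraries and at 0.244 and 0.182 from the day 28 libraries. Replicate 2 was nearest to a day 28 library (0.156). On a line from the day 5 mean (0) to the day 28 mean (1), the median position over the 458 genes whose means differed by at least 1 on the log2 scale was 0.307 for replicate 1 and 0.759 for replicate 2. Each group of genes is therefore also given without either of these 2 libraries. When 1 is left out, the day 14 library that remains is assumed to vary as the replicates at the other times do.

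G0s2 passed the test as a peak and Igf2bp2 as a trough. Short of the threshold, several lists had larger shares of members with both day 14 libraries above all others than genes at large. Among them were neutrophil markers, fibroblast markers, cell cycle genes, heat shock chaperones, immediate early genes and T and NK cell markers (2 of 6). Both day 14 libraries were below all others in 5 of 26 chemokine ligand genes and 3 of 15 neurotrophic and growth factor genes. The edgeR quasi-likelihood test with Benjamini-Hochberg adjustment over all genes called 2 of 12858 genes at an adjusted p under 0.05 (0.0156%), 1 higher at day 14 (0.00778%) and 1 lower (0.00778%). Under a looser limit of 0.10, added after the data were seen, 23 genes passed (0.179%), 17 higher and 6 lower. By shape, 15 of these 23 had a peak at day 14, 6 a trough, and 2 a rising course with its highest level at day 28. At an unadjusted p under 0.05 there were 1621 genes (12.6%), 941 higher (7.32%) and 680 lower (5.29%). Both day 14 libraries lay above all 5 others in 852 genes (6.63%) and below all 5 in 718 (5.58%). Among the 7932 genes with a mean of at least 5 FPKM at some time, these counts were 452 (5.7%) and 531 (6.69%). In the same fit, the step from day 5 to day 14 had 614 calls (4.78%) and that from day 14 to day 28 had 8 (0.0622%). The count of 2 moved with the libraries: without replicate 1, 2 or 3 of day 5, edgeR called 0 genes, with 1336, 1217 and 1325 at an unadjusted p under 0.05. Without replicate 1 of day 14 it called 269, 89 higher and 180 lower, and without replicate 2 of day 14 it called 201, 187 higher and 14 lower. Only 18 genes were called in both of these fits, 15 of them in the same direction, and the fits share the libraries of days 5 and 28. It called 3 genes without replicate 1 of day 28 and 19 without replicate 2. DESeq2 called 200. All p-values measure the spread between these samples.

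G0s2 and Igf2bp2 were also called in each step, in opposite directions. G0s2 encodes an inhibitor of the fat-splitting lipase ATGL and lies on chromosome 1, positions 193272161 to 193273217, minus strand (GRCm38). Its level was 18.4, 23.6 and 25.5 FPKM in the day 5 libraries, 60.1 and 68.5 at day 14 and 22.2 and 15.8 at day 28. Both day 14 libraries were above all 5 others by a wide margin. G0s2 rose to a peak, 3.11-fold over the geometric mean of the other times (log2 1.63, SE 0.17, edgeR adjusted p = 0.0298). The step from day 5 was 1.53 with an adjusted p of 0.00926, and the step to day 28 was -1.74 with an adjusted p of 0.0344. Over the 7 fits that each left out 1 library, the contrast stayed between 1.53 and 1.78 and the edgeR adjusted p between 0.00294 and 0.0995. It was past 0.05 without replicate 1, 2 or 3 of day 5 (0.0543, 0.0995 and 0.0938), with replicate number as a block (0.242) and in limma with a pseudocount of 1 or 0.1 (0.156 and 0.122), and it was 4.46e-12 in DESeq2.

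Igf2bp2 encodes an RNA-binding protein that acts on the stability and translation of its targets and lies on chromosome 16, positions 22059009 to 22163299, minus strand. Its libraries measured 7.82, 8.05 and 8.34 FPKM at day 5, 4.09 and 3.20 at day 14 and 10.1 and 9.0 at day 28. Both day 14 libraries were below all others, and the ranges did not overlap. The gene fell by 1.27 on the log2 scale (SE 0.14, edgeR adjusted p = 0.0298), by a step of -1.14 from day 5 (adjusted p = 0.00949) and a step of 1.40 to day 28 (adjusted p = 0.0344). Leaving out 1 library at a time gave contrasts from -1.45 to -1.10 and edgeR adjusted p-values from 0.00294 to 0.161. The call ended without replicate 1, 2 or 3 of day 5 (0.0543, 0.104 and 0.161), without replicate 1 of day 28 (0.0929), with the replicate block (0.242) and in limma (0.156 and 0.122), and the adjusted p was 1.72e-10 in DESeq2.

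**Figure D1:**
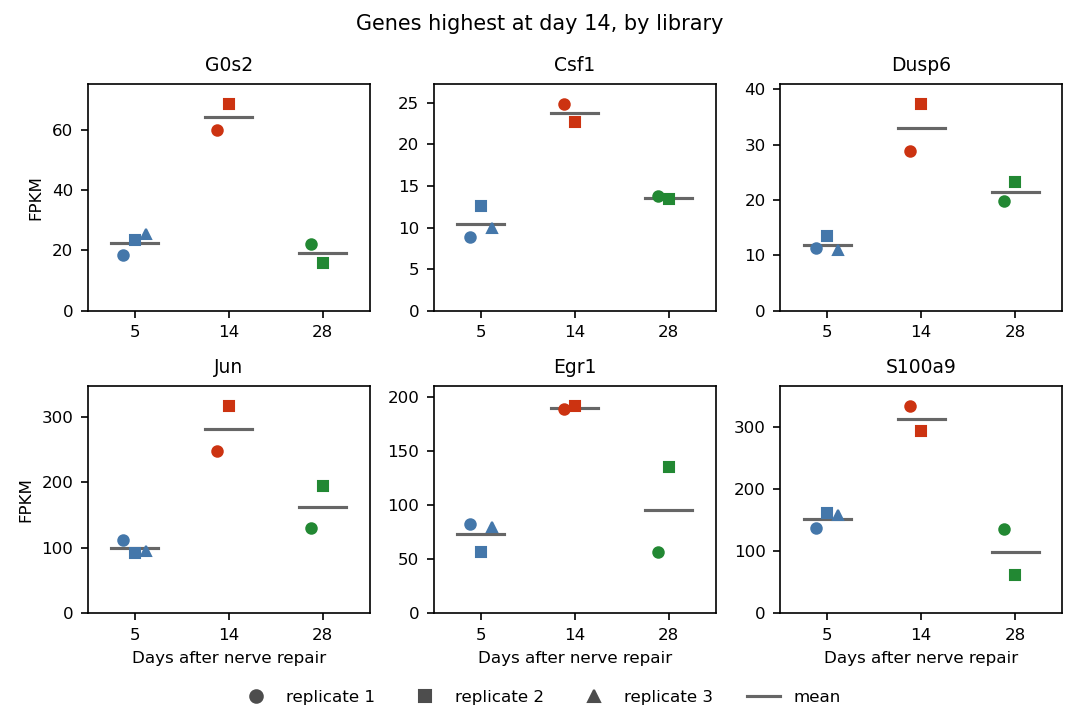
FPKM of 6 genes with a peak at day 14 in each library, by days after repair. Points are libraries, marker shapes are replicate numbers and horizontal bars are means. For G0s2, Csf1, Dusp6, Jun, Egr1 and S100a9, both day 14 points lie above all others.

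Of the genes that passed only the looser limit, Csf1 and Dusp6 had the smallest adjusted p. Csf1, the growth factor that keeps macrophages alive and dividing, was at 8.87, 12.6 and 9.92 FPKM at day 5, 24.8 and 22.7 at day 14 and 13.8 and 13.4 at day 28. Dusp6, a phosphatase that switches off ERK kinases, was at 11.4, 13.5 and 10.9 FPKM at day 5, 28.9 and 37.3 at day 14 and 19.8 and 23.2 at day 28. In both genes the day 14 libraries were the highest, and the day 28 libraries were above all of day 5. Their contrasts were 0.95 (SE 0.12) and 1.05 (SE 0.13), with an edgeR adjusted p of 0.0646 for each. Csf1 kept its size without replicate 1 (0.93) and without replicate 2 (0.97) of day 14, with adjusted p-values of 0.0139 and 0.0111. Its adjusted p reached 0.168 over the fits that left out 1 library, and was 0.306 with the replicate block and 0.174 in limma with a pseudocount of 1.

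Several of the others encode signals and enzymes of leukocytes. Ltb, a membrane-bound cytokine of the TNF family, was at 6.79, 6.30 and 6.99 FPKM at day 5, 27.6 and 11.5 at day 14 and 4.17 and 4.30 at day 28. The first of the day 14 libraries held more Ltb than the other, and both were above all other libraries. Hdc, the enzyme that makes histamine, was at 15.7, 20.6 and 20.0 FPKM at day 5, 41.8 and 34.9 at day 14 and 16.7 and 9.33 at day 28. Osgin1, which is induced by oxidative stress, was at 9.61, 7.45 and 6.71 FPKM at day 5, 27.4 and 19.6 at day 14 and 9.42 and 13.5 at day 28. The log2 contrasts were 1.87, 1.29 and 1.30, with edgeR adjusted p-values from 0.0859 for Ltb to 0.0860 for Hdc. The Ltb contrast was 1.12 without replicate 1 of day 14 and 2.37 without replicate 2. In the same order, it was 1.16 and 1.41 for Hdc and 1.05 and 1.52 for Osgin1. Hdc is also on the list of mast cell and basophil markers, of which it made up 96.0% of the sum. Of 11 members 3 were tested, with a median contrast of -0.68. The other members of that list together summed to 1.20, 1.13 and 0.644 FPKM at day 5, 0.474 and 0.314 at day 14 and 1.23 and 1.71 at day 28, and the basophil markers Mcpt8 and Fcer1a were at 0 in every library.

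Further peak genes under the looser limit were the protease gene Asprv1 (13.9 and 11.3 FPKM at day 14), the cation channel gene Trpm2 (3.86 and 3.4), the cytokine gene Il16 (5.70 and 6.42), the orphan receptor gene Gpr162 (7.97 and 5.49), the centromere gene Cenpo (3.80 and 3.84) and the adaptor gene Sh2d3c (8.84 and 7.99). In each of these 6 genes the lower of the day 14 libraries was above every library of days 5 and 28. Their contrasts ran from 0.75 for Trpm2 to 1.45 for Gpr162, with edgeR adjusted p-values from 0.0860 for Asprv1 to 0.0982 for Sh2d3c.

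Retnla, Pla2g2d and Cd81 passed the looser limit through a difference between day 5 and the later times. Retnla, a secreted protein that interleukin 4 induces in mouse macrophages, was at 3.21, 6.0 and 6.32 FPKM at day 5, 117 and 58.4 at day 14 and 95.5 and 50.8 at day 28. The day 14 and day 28 values overlapped, all were far above day 5, and the contrast was 2.17 (edgeR adjusted p = 0.0859). Pla2g2d, a secreted phospholipase, was at 0.119, 0.188 and 0.221 FPKM at day 5, 5.73 and 2.83 at day 14 and 7.55 and 7.23 at day 28, and Cd81, a tetraspanin of the cell surface, at 4.52, 4.98 and 4.85 FPKM at day 5, 21.4 and 16.9 at day 14 and 17.7 and 24.3 at day 28. Pla2g2d was highest at day 28, and the Cd81 values of days 14 and 28 overlapped.

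Immediate early genes, transcribed within minutes of a stimulus, held several members with a peak at day 14. Of 35 tested, 9 (25.7%) had both day 14 libraries above all others and 0 had both below, beside 6.63% and 5.58% of all genes. None was called by edgeR and 6 were called higher by DESeq2. At an unadjusted p under 0.05, 13 were higher and 1 was lower, and 25 of 35 contrasts were positive. The median contrast was 0.34, beside 0.02 over all genes, and was 0.16 without replicate 1 of day 14 and 0.25 without replicate 2. The summed level was 8663, 7981 and 8095 FPKM at day 5, 9579.8 and 8843 at day 14 and 5966 and 7823 at day 28, of which Junb made up 15.1%.

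Jun, a subunit of AP-1, was the member that passed the looser limit. Its level was 112, 92.4 and 94.5 FPKM at day 5, 247 and 315 at day 14 and 130.4 and 194 at day 28, a contrast of 1.15 (SE 0.17, edgeR adjusted p = 0.0859). Egr1, a zinc finger transcription factor, was at 82.2, 57.1 and 80.3 FPKM at day 5, 189 and 192 at day 14 and 56.4 and 136 at day 28. In both genes the day 14 libraries were the highest and replicate 2 of day 28 stood above replicate 1. Egr1 had a contrast of 1.19 and an edgeR adjusted p of 0.169. Ier2 was at 86.2, 90.0 and 80.2 FPKM at day 5, 159 and 169 at day 14 and 56.9 and 112 at day 28, and Klf2, a transcription factor that restrains inflammatory genes, at 99.8, 100.1 and 123 FPKM at day 5, 161 and 242 at day 14 and 91.6 and 126 at day 28. Dusp1, a phosphatase of p38 and JNK kinases, was at 443, 438 and 422 FPKM at day 5, 697 and 612 at day 14 and 356 and 495 at day 28, and Btg2, which slows the cell cycle, at 43.4, 45.8 and 62.7 FPKM at day 5, 65.4 and 72.3 at day 14 and 43.7 and 55.1 at day 28. All of these had both day 14 libraries on top, with contrasts of 0.95, 0.90, 0.61 and 0.46. Fosb, Jund and Ier5 completed the 9, with contrasts of 0.56, 0.42 and 0.48. The abundant members Junb and Ier3 did not follow, at 0.23 and -0.15, and Ier3 had 0.06 without replicate 2 of day 14.

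Heat shock chaperone genes, which help proteins fold, had 5 of 15 members (33.3%) with both day 14 libraries on top, beside 6.63% of all genes. In 0 both lay below, beside 5.58%. At an unadjusted p under 0.05, 5 were higher, and the median contrast was 0.13 (0.11 and 0.17 without replicate 1 or 2 of day 14). None was called by edgeR or by DESeq2. Hspa1a was at 135, 38.9 and 39.5 FPKM at day 5, 179.5 and 292 at day 14 and 137 and 164 at day 28, and its co-chaperone Dnajb1 at 39.1, 27.7 and 32.0 FPKM at day 5, 39.3 and 50.6 at day 14 and 24.7 and 32.5 at day 28. For Hspa1a, replicate 1 of day 5 stood well above the other day 5 libraries, and the highest day 28 library was close to replicate 1 of day 14. The other members were Hspa1b (1.24), Bag3 (0.40) and Hspb1 (0.99). Hspa1a and Hspa1b are near identical, so fragments may be shared between them.

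Promoters were read for short motifs because genes of these lists are known targets of factors that act through such elements. The window was the 250 bases before each gene start in the RefSeq table of build GRCm38.p6, both strands were searched, and the letters were TGACGTCA for the cyclic AMP response element, TGACTCA for AP-1 and GGAATTTCC for one form of the NF-kB element, none of which contains another. A gene was counted if any of its promoters held the letters, so shares of genes and shares of promoters are unlike measures. The cyclic AMP element stood in 508 of 32851 promoters (1.55%) and in 3.18% of the 6043 matched genes with at least 5 FPKM. It stood in 3 of 27 matched immediate early genes, Btg2, Dusp1 and Maff, in 12 of 341 genes with both day 14 libraries above all others (3.52%) and in 17 of 410 with both below (4.15%). Shown among the genes that hold it are Dusp1 and Btg2, with both day 14 libraries above all others, and Areg, with both below. None of these 3 was called by edgeR, with adjusted p-values of 0.165, 0.309 and 0.0859. DESeq2 called Dusp1 and Areg but not Btg2 (adjusted p = 0.188). The windows are chr17:26508473-26508722, minus strand, chr1:134079156-134079405, minus strand, and chr5:91139349-91139598, plus strand, and capitals mark the motif.
Dusp1: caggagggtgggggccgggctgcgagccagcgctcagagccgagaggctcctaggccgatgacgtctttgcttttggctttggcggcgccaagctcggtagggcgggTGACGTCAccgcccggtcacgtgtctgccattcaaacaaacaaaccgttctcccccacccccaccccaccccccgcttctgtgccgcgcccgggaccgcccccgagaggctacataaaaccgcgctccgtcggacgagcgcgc
Btg2: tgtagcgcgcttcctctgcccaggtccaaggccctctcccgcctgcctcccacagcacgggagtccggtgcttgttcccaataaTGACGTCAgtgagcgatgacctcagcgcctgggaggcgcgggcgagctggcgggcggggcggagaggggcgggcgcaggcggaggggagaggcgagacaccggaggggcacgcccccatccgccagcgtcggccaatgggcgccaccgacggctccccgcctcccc
Areg: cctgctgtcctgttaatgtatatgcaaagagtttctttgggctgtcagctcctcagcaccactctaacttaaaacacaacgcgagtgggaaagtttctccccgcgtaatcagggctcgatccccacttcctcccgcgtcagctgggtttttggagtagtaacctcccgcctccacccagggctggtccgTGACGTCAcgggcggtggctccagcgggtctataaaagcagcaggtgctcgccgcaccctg
The motif starts 143, 166 and 61 bases before the gene start in these windows. It is present in genes whose day 14 libraries were above all others and in a gene whose day 14 libraries were below. The AP-1 letters stood in 1466 promoters (4.46%) and in 4.17% of the 6043 genes. They stood in 0 of 27 immediate early genes, and in 1.47% and 3.9% of the genes above and below all others. A match describes the letters of the window and shows neither binding nor use of the site.

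Neutrophil markers were the cell type list with the largest share of members above all others. Of 20 markers 19 were listed and 14 tested. Both day 14 libraries were on top in 8 of the 14 (57.1%), beside 6.63% of all genes. G0s2, which is on this list, was the member called by edgeR, 8 were called higher by DESeq2, 10 were higher at an unadjusted p under 0.05, and the median contrast was 0.98 (0.85 without replicate 1 of day 14 and 1.11 without replicate 2). S100a9, a calcium-binding protein of neutrophils and monocytes, was at 138, 161 and 159 FPKM at day 5, 334 and 295 at day 14 and 137 and 61.4 at day 28, a contrast of 1.35 (SE 0.23, edgeR adjusted p = 0.103). Its partner S100a8 was at 101, 105 and 116 FPKM at day 5, 161 and 218 at day 14 and 115 and 41.6 at day 28. For both, the day 14 libraries were the highest and replicate 2 of day 28 the lowest.

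The chemokine receptor gene Cxcr2 was at 2.38, 4.43 and 3.55 FPKM at day 5, 5.31 and 6.50 at day 14 and 2.10 and 1.7 at day 28, and Il1r2, a decoy receptor for interleukin 1, at 12, 14.1 and 10.5 FPKM at day 5, 24.3 and 17.7 at day 14 and 11.2 and 7.54 at day 28. Lcn2, which binds bacterial iron carriers, was at 9.0, 7.75 and 6.72 FPKM at day 5, 18.5 and 11.8 at day 14 and 7.90 and 6.69 at day 28. In all of these the lower day 14 library exceeded the highest other library. Stfa2l1 and Gm5483, stefin-like inhibitors of cathepsins, were at 27.5 and 28.5 and at 29.7 and 17.0 FPKM at day 14, and at no more than 15.5 FPKM elsewhere, with contrasts of 1.74 and 1.37. Stfa2l1 is on the neutrophil list and Gm5483 is outside it. Members of the stefin family are so alike that their fragments may be misassigned. Pglyrp1, a granule protein that binds bacterial walls and is outside the list, was at 1.54, 1.82 and 1.05 FPKM at day 5, 5.29 and 5.29 at day 14 and 1.83 and 2.71 at day 28.

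The neutrophil list summed to 433, 442 and 472 FPKM at day 5, 768 and 765 at day 14 and 365 and 203 at day 28. S100a9 was the most abundant gene, with 37.2% of the sum, and without it the sums were 295, 281 and 313 FPKM at day 5, 435 and 471 at day 14 and 228 and 141 at day 28. Both day 14 sums were above all others with and without S100a9. Elane, a granule gene of young neutrophils, and Stfa1 were at 0 in all 7 libraries. Of the other granule genes, Mpo had 1 to 9 fragments and Camp at most 5 in a library, and Ngp had 27 fragments in replicate 2 of day 14 and 0 in the others. Ly6g, the marker used for exclusion in the sort, is not listed and was not analysed here. The part of neutrophils in the peak of G0s2 and the other members was not tested.

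**Figure D2:**
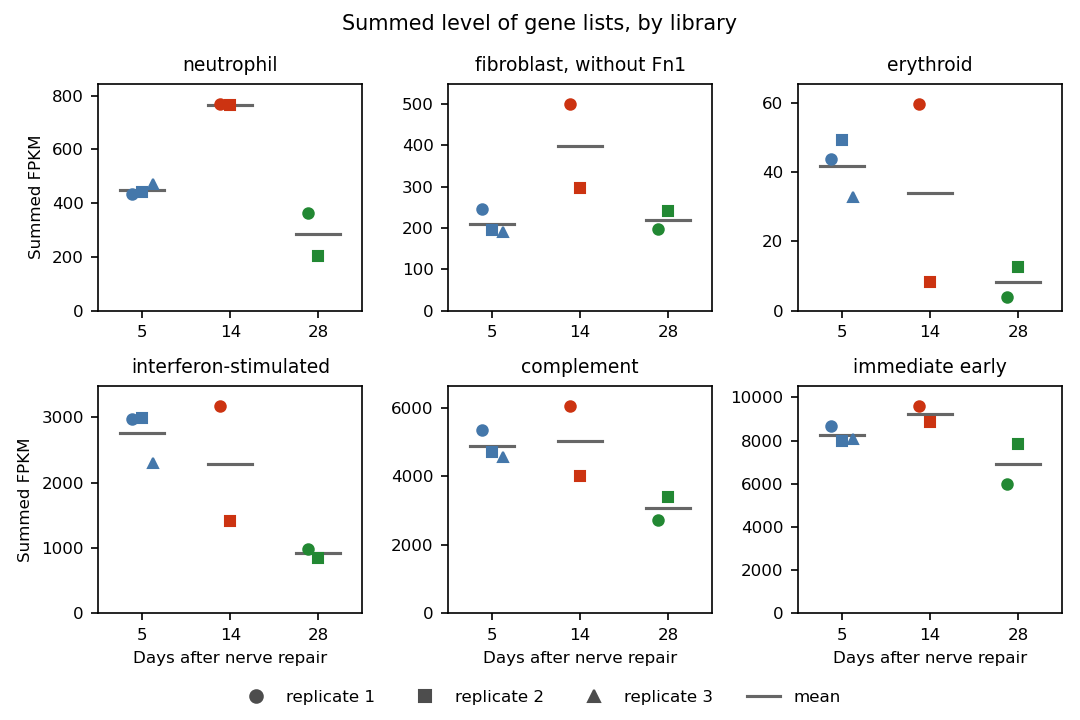
Summed FPKM of the members of 6 gene lists in each library, by days after repair. Points are libraries, marker shapes are replicate numbers and horizontal bars are means. The neutrophil sums of day 14 (768 and 765) lie above all others, the fibroblast sums without Fn1 are highest in replicate 1 of day 14, and the interferon-stimulated and complement sums differ between the day 14 replicates.

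Fibroblast and matrix markers had positive contrasts in all 29 members tested. Both day 14 libraries lay above all others in 13 of 29 (44.8%), beside 6.63% of all genes. None passed the edgeR test, 5 were called higher by DESeq2, 22 were higher at an unadjusted p under 0.05, and the median contrast was 1.43. The size rested on replicate 1 of day 14: the median was 0.82 without it and 1.94 without replicate 2. Col1a1, a chain of type I collagen, was at 26.2, 13.3 and 11.7 FPKM at day 5, 82.4 and 29.9 at day 14 and 10.4 and 22.4 at day 28. No other library held nearly as much as replicate 1 of day 14, and replicate 2 was close to replicate 1 of day 5. The contrast was 1.75 (SE 0.41, edgeR adjusted p = 0.185), 0.85 without replicate 1 (adjusted p = 0.307) and 2.3 without replicate 2 (adjusted p = 0.0111).

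Col1a2 was at 13.2, 8.09 and 6.30 FPKM at day 5, 48.1 and 18.4 at day 14 and 9.996 and 13.5 at day 28, and Dcn, a small matrix proteoglycan, at 3.97, 2.53 and 2.17 FPKM at day 5, 11.9 and 4.71 at day 14 and 2.49 and 2.72 at day 28. In both, replicate 1 of day 14 again stood far above replicate 2. Col3a1 was at 27.6, 10.5 and 7.32 FPKM at day 5, 76.1 and 26.0 at day 14 and 11.4 and 17.0 at day 28, so replicate 2 of day 14 lay under 1 day 5 library. Sparc, Postn and Bgn, also matrix proteins, had contrasts of 1.37, 1.71 and 1.37. Fn1, which macrophages also make, was 81.7% of the list's sum and went another way, at 555, 867 and 713 FPKM at day 5, 753 and 1742 at day 14 and 1849 and 1825 at day 28. Without Fn1 the list summed to 246, 194 and 189 FPKM at day 5, 499 and 297 at day 14 and 197 and 242 at day 28. The part of fibroblasts that passed the gate was not tested.

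Of 35 cell cycle genes tested, 13 (37.1%) had both day 14 libraries above all others, beside 6.63% of all genes. In 0 both lay below, beside 5.58%. None was called by edgeR and 3 were called higher by DESeq2, 22 were higher at an unadjusted p under 0.05, and 33 contrasts were positive. The median contrast was 0.58, and it was 0.66 without replicate 1 of day 14 and 0.51 without replicate 2. Rrm2, a subunit of the enzyme that makes deoxynucleotides, was at 2.12, 1.52 and 3.11 FPKM at day 5, 6.87 and 6.53 at day 14 and 3.05 and 5.35 at day 28. Ccna2, the cyclin of DNA synthesis, was at 1.71, 2.75 and 2.73 FPKM at day 5, 5.78 and 5.26 at day 14 and 4.89 and 3.96 at day 28, and the replication helicase gene Mcm5 at 4.18, 4.30 and 5.03 FPKM at day 5, 7.03 and 9.26 at day 14 and 5.93 and 6.13 at day 28. In these genes the highest day 28 library came closer to day 14 than any day 5 library did. Rrm2 had a contrast of 1.13 and an edgeR adjusted p of 0.192. Tk1 and Mcm6 had contrasts of 0.77 and 0.60, and the 2 negative members were Pcna (-0.18) and Mki67 (-0.18). Mki67, a marker of dividing cells, was at 18.4, 16.2 and 12.4 FPKM at day 5, 14.6 and 8.89 at day 14 and 8.44 and 14.2 at day 28, and its contrast turned to 0.13 without replicate 2 of day 14. The list summed to 275, 242 and 261 FPKM at day 5, 304 and 292 at day 14 and 263 and 303 at day 28, with 50.6% from Pcna, so replicate 2 of day 14 was below replicate 2 of day 28. Without Pcna the sums were 105, 109.5 and 116 FPKM at day 5, 171 and 171 at day 14 and 119.7 and 167 at day 28.

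Interferon-stimulated and complement genes had positive medians that rested on replicate 1 of day 14. Of 26 interferon-stimulated genes 24 had a positive contrast and 11 were higher at an unadjusted p under 0.05, yet 0 had both day 14 libraries above all others. None was called by edgeR and 2 were called higher by DESeq2. Their median was 0.49, and it was -0.12 without replicate 1 and 0.92 without replicate 2. Irf7, the transcription factor that drives interferon genes, was at 609.5, 522 and 433 FPKM at day 5, 626 and 269 at day 14 and 105 and 91.5 at day 28. Bst2, which tethers virus particles to the cell, was at 348, 318 and 257 FPKM at day 5, 416 and 205 at day 14 and 111 and 123 at day 28. Replicate 1 of day 14 was at or above the day 5 level in both genes, and replicate 2 lay between days 5 and 28. The list's sums were 2981, 2986 and 2299 FPKM at day 5, 3165 and 1412 at day 14 and 984 and 843 at day 28.

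Complement genes had a median of 0.46 over 15 members, 0.09 without replicate 1 of day 14 and 0.74 without replicate 2, with 9 higher at an unadjusted p under 0.05, 0 called by edgeR and 2 called higher by DESeq2. C1qa, a chain of the recognition protein C1q, was at 1439.9, 1262 and 1146 FPKM at day 5, 1894 and 1269.8 at day 14 and 849.7 and 1152 at day 28. At day 14, replicate 1 was above all others and replicate 2 inside the day 5 range. Cd55, which protects cells from complement, was at 2.01, 1.5 and 1.12 FPKM at day 5, 7.2 and 3.58 at day 14 and 2.84 and 2.35 at day 28, with both day 14 libraries on top (contrast 1.42, edgeR adjusted p = 0.158). The sums of the list were 5358, 4726 and 4566 FPKM at day 5, 6048 and 4009.5 at day 14 and 2719.5 and 3406 at day 28.

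**Figure D3:**
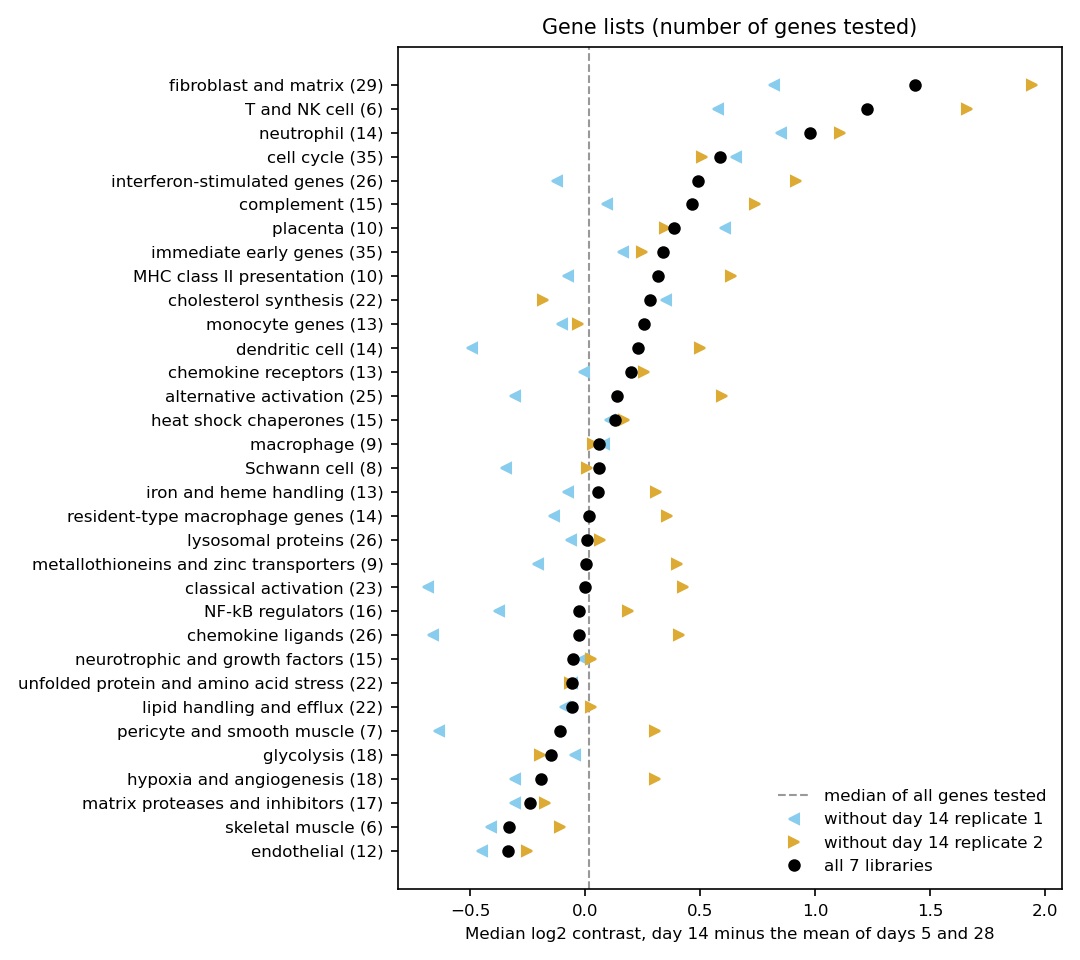
Median log2 contrast of day 14 against the mean of days 5 and 28 over the tested members of the 33 lists with at least 5 of them. Black points use all 7 libraries, triangles leave out replicate 1 or replicate 2 of day 14, and the dashed line is the median of all genes. The fibroblast, neutrophil and cell cycle points stay to the right of the line in all 3, while the interferon-stimulated points fall on both sides of it.

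Trough genes under the looser limit began with Areg, a ligand of the EGF receptor. Areg was at 24.1, 28.7 and 27.4 FPKM at day 5, 9.58 and 11.8 at day 14 and 19.0 and 26.5 at day 28, with both day 14 libraries below all others (contrast -1.19, SE 0.18, edgeR adjusted p = 0.0859). Among 15 neurotrophic and growth factor genes tested, 3 (20.0%) had both day 14 libraries below all others, beside 5.58% of all genes. In 0 both lay above, beside 6.63%. The median of the 15 was -0.05 (-0.01 without replicate 1 of day 14 and 0.02 without replicate 2). DESeq2 called 2 of them lower and edgeR 0, with 3 lower and 1 higher at an unadjusted p under 0.05. The others were Ereg, a related ligand, at 7.14, 9.86 and 6.07 FPKM at day 5, 2.37 and 4.99 at day 14 and 8.03 and 6.16 at day 28, and Inhba, a chain of activin A, at 22.6, 21.4 and 16.5 FPKM at day 5, 12.9 and 4.02 at day 14 and 27.8 and 36.0 at day 28. Inhba differed widely between the day 14 replicates, and day 28 was above day 5 in both libraries. Their contrasts were -0.99 and -1.60, with edgeR adjusted p-values of 0.252 and 0.177.

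Flrt3, an adhesion protein that guides growing axons and vessels, was at 65.9, 58.1 and 49.0 FPKM at day 5, 28.3 and 21.0 at day 14 and 41.4 and 40.2 at day 28. Il7r, a cytokine receptor chain, was at 46.0, 48.6 and 42.0 FPKM at day 5, 37.9 and 30.1 at day 14 and 87.8 and 71.8 at day 28. Flrt3 was lower at both later times than at day 5 and lowest at day 14, whereas Il7r was highest at day 28. Their contrasts were -0.97 and -0.83, with edgeR adjusted p-values of 0.0963 and 0.0982. Lpp, a protein of cell contacts, and Mdn1, which matures ribosomes, had a contrast of -0.79 each, also with both day 14 libraries below all others. Lpp was at 6.62, 6.68 and 5.96 FPKM at day 5, 3.13 and 2.52 at day 14 and 3.37 and 4.03 at day 28. Its step from day 5 was -1.18 and its step to day 28 was 0.41, so most of its contrast came from the fall after day 5.

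**Figure D4:**
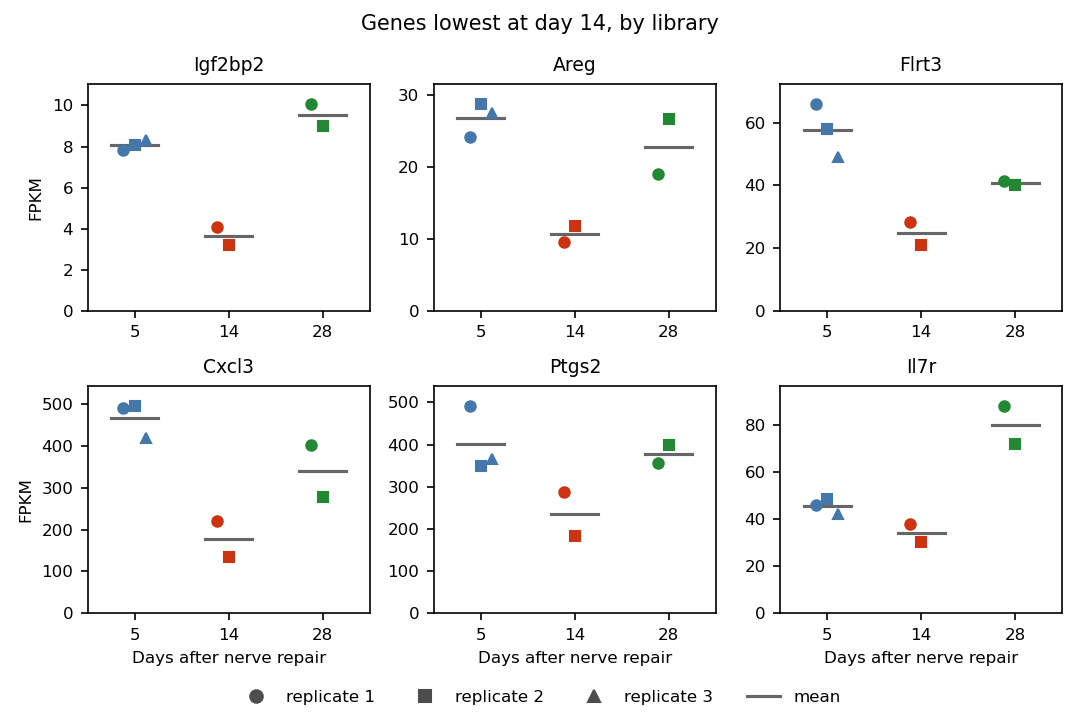
FPKM of 6 genes with a trough at day 14 in each library, by days after repair. Points are libraries, marker shapes are replicate numbers and horizontal bars are means. For Igf2bp2, Areg, Flrt3, Cxcl3, Ptgs2 and Il7r, both day 14 points lie below all others, and for Flrt3 they are at 28.3 and 21.0.

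Chemokine ligand genes had 5 of 26 members (19.2%) with both day 14 libraries below all others, beside 5.58% of all genes. In 2 (7.69%) both lay above, near the 6.63% of all genes. At an unadjusted p under 0.05, 8 members were lower and 2 higher, and the median was -0.03. None was called by edgeR, and DESeq2 called 6 lower and 1 higher. The median was -0.66 without replicate 1 of day 14 and 0.41 without replicate 2, so its sign rested on which was kept. The 5 below all others were Cxcl1, Cxcl2, Cxcl3, Ppbp and Ccl9. Cxcl1, which attracts neutrophils as Cxcl2 and Cxcl3 do, was at 3009, 2422 and 2122 FPKM at day 5, 1570.3 and 1416 at day 14 and 2045 and 2034 at day 28. Cxcl2 was at 4557, 3561 and 3377 FPKM at day 5, 2945 and 2294 at day 14 and 3548 and 3349 at day 28, and Cxcl3 at 491, 495 and 419 FPKM at day 5, 220.1 and 135 at day 14 and 403 and 279 at day 28. In these 3 genes day 28 was above day 14 in every library, and below or within the day 5 range. The contrasts were -0.60, -0.47 and -1.17, with an edgeR adjusted p of 0.124 for Cxcl3, 0.192 for Cxcl1 and 0.304 for Cxcl2. Ppbp, a platelet chemokine of the same family, was at 31.2, 24.4 and 53.9 FPKM at day 5, 2.70 and 6.79 at day 14 and 9.83 and 7.39 at day 28, so the day 28 values were close to replicate 2 of day 14. Ccl9 had a contrast of -0.46.

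Cxcl1, Cxcl2 and Cxcl3 lie together on chromosome 5, and their promoters are shown because all 3 held the NF-kB-type letters GGAATTTCC. These stood in 94 of 32851 promoters (0.286%). Counted by gene, they stood in 29 of the 6043 matched genes with at least 5 FPKM (0.48%). They stood in 4 of 18 matched chemokine ligand genes (22.2%), the other being Cxcl10. Of 410 matched genes with both day 14 libraries below all others, 5 held them (1.22%): Ctsl, Map3k7 and these 3. Of 341 with both above, Dusp6 and Il16 held them (0.587%). The windows are chr5:90890995-90891244, chr5:90903649-90903898 and chr5:90785851-90786100, all on the plus strand, with the motif in capitals.
Cxcl1: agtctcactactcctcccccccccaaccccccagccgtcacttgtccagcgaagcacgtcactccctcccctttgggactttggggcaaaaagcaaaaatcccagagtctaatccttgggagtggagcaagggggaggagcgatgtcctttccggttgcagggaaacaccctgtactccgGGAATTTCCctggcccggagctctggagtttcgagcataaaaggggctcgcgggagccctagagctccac
Cxcl2: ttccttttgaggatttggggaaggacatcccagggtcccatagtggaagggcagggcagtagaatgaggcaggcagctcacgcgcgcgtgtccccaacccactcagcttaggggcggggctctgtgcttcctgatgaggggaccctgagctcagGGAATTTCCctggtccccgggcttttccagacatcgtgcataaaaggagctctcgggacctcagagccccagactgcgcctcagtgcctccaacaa
Cxcl3: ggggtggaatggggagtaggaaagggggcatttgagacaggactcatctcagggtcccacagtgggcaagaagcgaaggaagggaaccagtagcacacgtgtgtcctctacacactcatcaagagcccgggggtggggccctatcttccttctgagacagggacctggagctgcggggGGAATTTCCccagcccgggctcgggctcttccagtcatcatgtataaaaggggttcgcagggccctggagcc
The motif starts 70, 96 and 72 bases before the gene starts. The 3 genes are neighbours of common descent, so they do not count as independent cases.

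Other chemokine genes had their highest values at day 14, at low levels. Cxcl13, which draws B cells, was at 2.18, 0 and 0.427 FPKM at day 5, 7.82 and 15.9 at day 14 and 3.39 and 3.19 at day 28, and Cxcl12, which retains leukocytes through Cxcr4, at 2.61, 1.58 and 0.583 FPKM at day 5, 10.8 and 4.28 at day 14 and 3.52 and 2.97 at day 28. In both genes the day 14 libraries were above all others, with contrasts of 2.79 and 1.71 and edgeR adjusted p-values of 0.192 and 0.188. The size for Cxcl12 rested on replicate 1 of day 14: its contrast was 0.96 without it and 2.21 without replicate 2. For Cxcl13 these values were 3.21 and 2.18. The monocyte attractants Ccl2 and Ccl7 had neither shape. Ccl2 was at 647, 559.6 and 503 FPKM at day 5, 366 and 104 at day 14 and 125 and 191 at day 28, and Ccl7 at 682, 602 and 566 FPKM at day 5, 392 and 92.0 at day 14 and 142 and 159 at day 28. In both, replicate 1 of day 14 lay between days 5 and 28 and replicate 2 was the lowest library. Their contrasts of -0.35 and -0.34 became 0.29 and 0.36 without replicate 2.

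Genes of classical activation had a median of -0.00 over 23 members, -0.68 without replicate 1 of day 14 and 0.43 without replicate 2. By edgeR 0 were called, 2 were higher and 4 lower at an unadjusted p under 0.05, and DESeq2 called 1 higher and 3 lower. Both day 14 libraries lay below all others in 2 of the 23 (8.7%), near the 5.58% of all genes. In 0 both lay above, beside 6.63%. The 2 below were Il6, an inflammatory cytokine, and Ptgs2, the inducible enzyme of prostaglandin synthesis. Il6 was at 16.6, 25.0 and 12.2 FPKM at day 5, 6.98 and 3.97 at day 14 and 8.29 and 13.8 at day 28. Ptgs2 was at 490.4, 349 and 365 FPKM at day 5, 287 and 182 at day 14 and 355 and 399 at day 28. Their contrasts were -1.36 and -0.73, and Il1b had -0.48. Il1a was at 245, 258 and 181 FPKM at day 5, 126 and 71.9 at day 14 and 98.2 and 111 at day 28. Nos2, which makes nitric oxide, was at 10.5, 2.85 and 6.34 FPKM at day 5, 2.03 and 0.0823 at day 14 and 0.0478 and 0.0960 at day 28, so replicate 1 of day 14 held nearly all of what was left after day 5, and the contrast of 0.63 became -2.97 without it.

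Genes of alternative activation had a median of 0.14 over 25 members, -0.31 without replicate 1 of day 14 and 0.59 without replicate 2. By edgeR 0 were called, 5 were higher and 2 lower at an unadjusted p under 0.05, and DESeq2 called 1 in each direction. Ass1, an enzyme of the urea cycle outside the list, had both day 14 libraries above all others, at 5.16, 1.53 and 2.35 FPKM at day 5, 8.54 and 10.1 at day 14 and 3.02 and 3.58 at day 28 (contrast 1.56, edgeR adjusted p = 0.177). Chi3l3, a chitinase-like lectin with close relatives, was at 7.48, 14.2 and 4.84 FPKM at day 5, 6.61 and 2.2 at day 14 and 3.61 and 10.8 at day 28, which overlapped at all times. Alox15, a lipoxygenase, was at 1.65, 0.966 and 0.948 FPKM at day 5, 5.22 and 1.51 at day 14 and 1.09 and 2.51 at day 28, highest in replicate 1 of day 14.

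Genes below all others at day 14 tended to have long transcripts. Among the genes with at least 5 FPKM and a known length, both day 14 libraries lay below all others in 3.19% of the shortest of 4 equal classes (100 to 2080 bases), 4.82% and 6.70% of the middle ones, and 12.1% of the longest (4638 to 123179 bases). The shares above all others went the other way, at 7.49%, 7.30%, 5.18% and 2.79%. The median contrasts were 0.04, 0.01, -0.02 and -0.09, and those of the longest class were -0.13 without replicate 1 of day 14 and -0.07 without replicate 2. The 3 long transcripts Malat1, Neat1 and Macf1, chosen after their values were seen, show the pattern. Malat1, a nuclear noncoding RNA with a longest transcript of 6983 bases, was at 150.3, 213 and 159.7 FPKM at day 5, 112 and 104 at day 14 and 177 and 161 at day 28. Neat1, the scaffold RNA of paraspeckles (20771 bases), was at 196, 285 and 311 FPKM at day 5, 187 and 116 at day 14 and 294 and 217 at day 28. Macf1, a linker of microtubules and actin (23495 bases), was at 21.4, 27.0 and 22.3 FPKM at day 5, 16.8 and 14.9 at day 14 and 23.2 and 26.8 at day 28. All had both day 14 libraries below every other, with contrasts of -0.67, -0.78 and -0.65. The part of length in the contrasts was not tested.

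**Figure D5:**
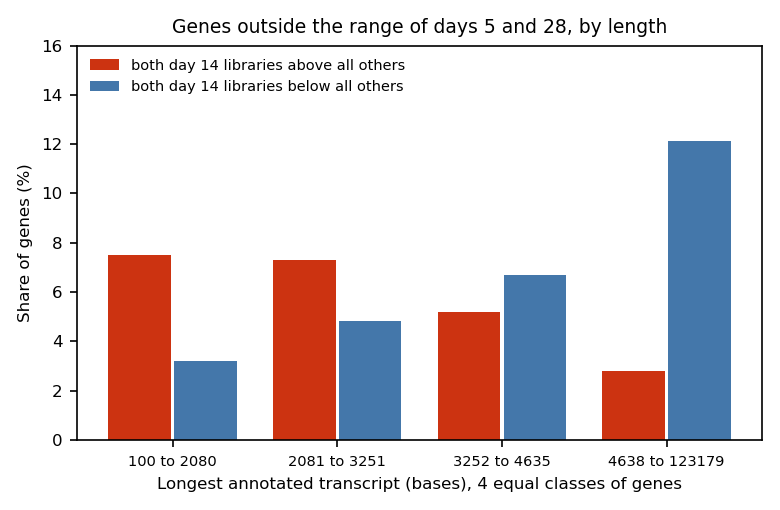
Percent of genes with both day 14 libraries above (red) or below (blue) all 5 others, in 4 equal classes of longest transcript length, for genes with at least 5 FPKM. The share below grows from 3.19% to 12.1% from the shortest to the longest class, and the share above drops from 7.49% to 2.79%.

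Among the remaining genes with the largest contrasts were the small nucleolar RNAs Snord22 and Snora81, which guide changes to other RNAs from within introns of host genes. Snord22 was at 45.5, 15.4 and 36.1 FPKM at day 5, 149 and 98.8 at day 14 and 41.0 and 41.1 at day 28, and Snora81 at 23.8, 28.1 and 52.8 FPKM at day 5, 7.10 and 20.1 at day 14 and 36.6 and 26.7 at day 28. With transcripts of 126 and 178 bases, few fragments stand behind these levels, and fragments of the hosts may be counted with them. The lysosomal protease gene Ctsl was at 4203, 3651 and 3959 FPKM at day 5, 2638 and 2407 at day 14 and 3271 and 2891 at day 28, below all others at day 14 (contrast -0.46). Other members of pathway lists with both day 14 libraries below all others included Ddit4 (-0.73), Plaur (-0.51), Adam8 (-0.33), Vegfa (-0.31) and Ireb2 (-0.41). Those with both above included Gas6 (0.62), a bridge to dying cells, Slc40a1 (0.84), the iron exporter, Timp2 (0.28) and Nfkbid (0.46). None of these 9 genes was called by edgeR, and several sizes rested on 1 day 14 library. Without replicate 1 and without replicate 2 of day 14, the contrasts were 0.23 and 0.93 for Gas6, 0.46 and 1.15 for Slc40a1, -1.14 and -0.40 for Ddit4, and -0.19 and -0.44 for Vegfa.

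Across the 37 lists, 36 had no member called by edgeR, 22 had a median above that of all genes, 13 had no member with both day 14 libraries outside the others, and 21 had medians of opposite sign without one or the other day 14 library. The 21 lists not described one by one held 286 tested members, of which 10 were above and 10 below all others, and their medians ran from -0.34 for endothelial markers to 0.64 for eosinophil markers.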

How the data were processed

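Values came from 1 table of cuffdiff output for 7 RNASeq libraries of sorted mouse macrophages. Per the labels and the study's methods, the authors trimmed reads with cutadapt 1.8, mapped them to mm10 with TopHat2 2.0.13 and quantified genes with Cuffdiff 2.2.1. The deposited values are expected counts (raw fragments estimated per gene, used for all tests), a scaled signal (fragments times 1 factor per library, used for those factors) and FPKM (used for printed levels and for overlap between libraries), all as the authors made them. Of the fragment values 1.006% were not whole, and these were rounded. Totals of 18027190 to 35247116 fragments put a floor of 3 fragments at 8.51e-06% to 1.66e-05% of a library, for counting error only.

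Genes were filtered by filterByExpr and fitted with time as the only term in edgeR 4.0.16 (TMM, quasi-likelihood F test, R 4.3.3), with the contrast of day 14 minus the mean of days 5 and 28 and Benjamini-Hochberg adjustment over 12858 genes. Alternatives used DESeq2 1.42.0 and limma 3.58.1, other factors, filters, thresholds and weights of days 5 and 28, a replicate block, and each library left out. The fit was also run on simulated data, from which no result is given or used here. The 37 gene lists were chosen with earlier results of these data known, as was the comparison. Genes were named if called; if both day 14 libraries lay outside all others at 5 FPKM or more, the 15 highest and 10 lowest contrasts; as called, most abundant or non-overlapping members of a list; or as sort markers and genes the study names. Genes under an adjusted p of 0.10, Malat1, Neat1 and Macf1 were chosen after their values were seen. Positions came from GENCODE for 12727 of 12858 genes, and promoters from RefSeq. Python 3.11.15, pandas 2.3.3 and matplotlib 3.10.9 made tables and plots.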

Additional observations from a re-analysis of the deposited data

How the results depend on the processing

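The counts in the text were 2 genes called, 1 higher (1 peak) and 1 lower (1 trough), 2 called in both steps. At an adjusted p under 0.01, in limma on log2(FPKM + 1) or log2(FPKM + 0.1), and with the replicate block all of these were 0, with 1592, 1556 and 1286 genes at an unadjusted p under 0.05 in the last 3. The block kept 2 of 4 residual degrees of freedom, and its numbers need not pair samples: centred libraries of equal number correlated at 0.175 and 0.0412 (days 5 and 14), 0.0686 and 0.0110 (days 5 and 28), and -0.0518 (days 14 and 28, where 2 libraries each give 1 value). Counts called, higher, lower, peak, trough and both steps were 23, 17, 6, 15, 6 and 18 at 0.10 (chosen after seeing the data); 200, 127, 73, 111, 70 and 47 in DESeq2; and 229, 168, 61, 142, 58 and 60 with no expression filter. Against the mean of the 5 other libraries, or the value interpolated by days, 9 were called, 8 higher with 6 peaks. Leaving out 1 library gave 0 to 269 called, 0 to 187 higher, 0 to 180 lower, 0 to 173 peaks, 0 to 176 troughs and 0 to 58 in both steps. The cause was not tested. RLE or cuffdiff factors gave the same counts. Of 108 named genes, 99 kept the sign of their contrast in every alternative and 71 were called in at least 1. With 1 library left out, the log2 contrast ranged from -0.39 to 0.056 for Ier3, -0.61 to 0.62 for Fn1, -0.57 to 0.13 for Mki67 (0.03 without replicate 2 of day 28), -1.52 to 0.29 for Ccl2, -1.72 to 0.36 for Ccl7, -0.20 to 0.26 for Emr1, -2.97 to 1.62 for Nos2, -1.24 to 0.13 for Clu and -0.94 to 0.98 for Cx3cl1. Signs also turned with the block for Emr1 (-0.0044) and Cx3cl1 (-0.075), against the mean of the 5 others and the interpolated value for Emr1 (-0.054 and -0.063) and Nos2 (-0.032 and -0.090), and in limma for Nos2 (-0.58 and -0.68). Genes of few fragments, such as Cx3cl1 and Sct, are limited by depth.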

Other observations

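T and NK cell markers were low, and 6 of 17 listed were tested. Of these 6, Cd4 and Lck (33.3%) had both day 14 libraries above all others, beside 6.63% of all genes. In 0 both lay below, beside 5.58%. All 6 contrasts were positive, and the median was 1.22 (0.58 without replicate 1 of day 14 and 1.66 without replicate 2). Cd4, a co-receptor of helper T cells, was at 3.63, 2.3 and 2.82 FPKM at day 5, 13.1 and 7.54 at day 14 and 4.55 and 6.82 at day 28 (contrast 1.34, edgeR adjusted p = 0.120). Cd3e, the T cell marker used for exclusion in the sort, had 1 to 5 fragments in each library. The list summed to 9.53, 8.35 and 8.46 FPKM at day 5, 21.8 and 21.9 at day 14 and 19.3 and 19.7 at day 28, with 47.6% from Cd2. Without Cd2 the sums were 5.87, 3.46 and 4.74 FPKM at day 5, 18.2 and 9.67 at day 14 and 5.76 and 9.45 at day 28. Replicate 1 of day 14 was then far above the rest, and replicate 2 was close to replicate 2 of day 28. The part of T cells in the Cd4 values was not tested.

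Erythroid markers summed to 43.7, 49.2 and 33.0 FPKM at day 5, 59.7 and 8.28 at day 14 and 3.92 and 12.7 at day 28, mostly from the globin gene Hba-a1 (79.9%). Of 8 listed, 3 were tested, 0 had both day 14 libraries outside the others, and the median contrast was 1.12 (-0.79 without replicate 1 of day 14 and 1.95 without replicate 2). Replicate 1 of day 14 was the highest library and replicate 2 was near day 28. Genes of the placenta list, led by Tpbpa, summed to 41.8, 56.3 and 35.3 FPKM at day 5, 37.0 and 43.4 at day 14 and 1.88 and 39.7 at day 28, so replicate 1 of day 28 stood far below all others. Of 10 tested, 0 had both day 14 libraries outside the others, and the median contrast was 0.39 (0.61 and 0.35 without replicate 1 or 2 of day 14). Among genes of the study with few fragments, Sct, the hormone secretin, had 14, 14 and 3 fragments at day 5, 12 and 17 at day 14 and 0 and 0 at day 28, so it was not detected above the floor of 3 fragments at day 28. Cx3cl1, a membrane-bound chemokine, had 1 to 24 fragments in a library and was at 0.139, 0.0825 and 0.0155 FPKM at day 5, 0.0751 and 0.288 at day 14 and 0.123 and 0.424 at day 28. Its mean level was lowest at day 5 and highest at day 28, and the values of the 3 times overlapped (contrast 0.34, edgeR adjusted p = 0.904). Clu, a secreted chaperone, was at 0.179, 0.393 and 0.199 FPKM at day 5, 0.378 and 0.499 at day 14 and 0.644 and 4.36 at day 28, and Nes, an intermediate filament protein, at 0.159, 0.180 and 0.131 FPKM at day 5, 0.0932 and 0.481 at day 14 and 1.36 and 2.95 at day 28. Both were highest in replicate 2 of day 28.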
